A study of Mus musculus with 17 samples.

Results

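The 33 genes described here belong to families that make, remove or respond to the membrane lipid diacylglycerol: 12 phospholipases C, 8 protein kinases C, 3 protein kinases D, 7 diacylglycerol kinases and 3 RasGRP exchange factors. They were taken by gene symbol. All 33 were found among the 49315 genes of the liver files. In the hepatocyte files 31 were found among the 15632 genes listed at least once, and Plcb2 and Dgkg were not listed. RNA was sequenced from liver of SMSrKO mice (4 libraries, numbered 5 to 8) and WT mice (4 libraries, numbered 1 to 4), all fed high-fat diet and given fructose in the drinking water over 16 weeks. It was also sequenced from hepatocytes isolated with collagenase from mice aged 2 months: Sms1/Sms2/Smsr-tKO (tKO, 3 libraries, 7 to 9), Sms1/Sms2-dKO (dKO, 3 libraries, 4 to 6) and WT (3 libraries, 1 to 3). The tKO and dKO mice thus share the loss of Sms1 and Sms2 as labelled, and tKO against dKO differs by the label for Smsr. How the alleles were made, whether a Cre line was used, and the age of the mice that gave liver are stated nowhere in the labels, nor do they say whether the 4 liver libraries of a group came from separate mice. For hepatocytes the labels give 3 mice per group but tie no library to a mouse. The p-values therefore measure the spread between these libraries, which may be technical, and in hepatocytes that spread was small.

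Receptors coupled to Gq proteins or to tyrosine kinases activate phospholipases C, which split the lipid phosphatidylinositol bisphosphate into diacylglycerol and inositol trisphosphate. Inositol trisphosphate releases calcium from the endoplasmic reticulum, as in hepatocytes exposed to vasopressin, adrenaline or ATP. Diacylglycerol recruits protein kinases C other than the atypical ones (from Prkci and Prkcz), protein kinases D and members of the RasGRP family to membranes. Diacylglycerol kinases end the signal by making phosphatidic acid. Lipid accumulation in rodent liver has been linked to diacylglycerol and to PKC-epsilon, the product of Prkce. SMSr, encoded by Samd8, is named in the study's title as an enzyme with phospholipase C activity toward phosphatidylethanolamine, a reaction that also yields diacylglycerol. The products of Sgms1 and Sgms2, SMS1 and SMS2, release diacylglycerol when they make sphingomyelin.

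The libraries held 24391627 to 47351126 counts in liver and 9221481 to 9665310 rounded expected counts in hepatocytes. The tissue label is liver, but the extract protocol names subcutaneous white fat for the SMSrKO experiment. Adipocyte markers summed to 0.307 to 1.99 CPM, the count scaled to a common library total, in SMSrKO libraries and 0.323 to 2.60 CPM in WT libraries, with Lep at 0 counts in all 8, while 8 hepatocyte markers summed to 84282 to 96119 CPM in SMSrKO and 59772 to 74818 CPM in WT. Of the targeted genes, Samd8 and Sgms1 were not lower in the libraries labelled as their knockouts. Samd8 averaged 54.2 ± 3.67 CPM in libraries labelled SMSrKO and 42.6 ± 6.38 CPM in WT (SD, n = 4 each), with an edgeR adjusted p of 0.218. In hepatocytes Samd8 averaged 100.6 ± 2.94 CPM in libraries labelled tKO, 81.6 ± 6.01 CPM in dKO and 69.7 ± 3.57 CPM in WT (SD, n = 3 each), 0.53 higher on the log2 scale in tKO than in WT (edgeR adjusted p = 5.41e-13). Sgms1 was 0.86 higher on the log2 scale in libraries labelled dKO than in WT (edgeR adjusted p = 5.57e-21), and Sgms2 was 0.29 lower in dKO (edgeR log2 fold change -0.29, adjusted p = 6.22e-06). Gene counts do not show whether the counted transcripts contain the deleted part, so the genotypes are used below as labelled.

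Promoter windows are printed for 4 members on which the results turn: Plcxd2, which was higher in both knockout hepatocyte groups, Rasgrp3, which had the largest fold change among the 20 members tested in hepatocytes, and Plce1 and Prkd3, the members with the smallest p in liver. Each window runs 5′ to 3′ on the gene's strand, from 250 bases before to 50 bases after a start annotated by RefSeq on GRCm38.p6. Capitals mark matches, on either strand, to the letters of the motifs searched for, given after the sequences. Plcxd2 lies on the minus strand at chr16:46010364-46010663, Rasgrp3 on the plus strand with 2 annotated starts at chr17:75435655-75435954 and chr17:75465288-75465587, Plce1 on the plus strand at chr19:38523947-38524246, and Prkd3 on the minus strand at chr17:79020767-79021066, the upstream of its 2 windows. The Plce1 window lies inside the gene as placed by Ensembl, which starts upstream of it at chr19:38481109.
Plcxd2: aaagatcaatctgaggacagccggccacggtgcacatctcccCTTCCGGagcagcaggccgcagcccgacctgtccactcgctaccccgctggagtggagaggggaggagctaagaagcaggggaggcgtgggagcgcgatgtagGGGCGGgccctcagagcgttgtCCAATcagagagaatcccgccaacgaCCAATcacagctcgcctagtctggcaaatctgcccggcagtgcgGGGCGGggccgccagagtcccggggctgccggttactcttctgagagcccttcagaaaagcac
Rasgrp3, upstream start: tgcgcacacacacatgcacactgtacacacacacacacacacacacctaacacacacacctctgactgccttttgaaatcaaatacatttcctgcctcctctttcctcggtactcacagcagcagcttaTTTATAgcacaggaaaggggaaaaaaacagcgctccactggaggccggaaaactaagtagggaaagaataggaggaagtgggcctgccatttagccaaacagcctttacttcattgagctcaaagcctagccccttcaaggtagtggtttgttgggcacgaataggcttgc
Rasgrp3, downstream start: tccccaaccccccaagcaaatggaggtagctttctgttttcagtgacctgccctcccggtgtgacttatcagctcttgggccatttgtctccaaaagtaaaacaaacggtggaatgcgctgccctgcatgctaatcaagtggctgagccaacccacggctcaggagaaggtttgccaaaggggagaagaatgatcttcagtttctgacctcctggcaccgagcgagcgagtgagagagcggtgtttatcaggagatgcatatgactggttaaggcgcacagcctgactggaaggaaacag
Plce1: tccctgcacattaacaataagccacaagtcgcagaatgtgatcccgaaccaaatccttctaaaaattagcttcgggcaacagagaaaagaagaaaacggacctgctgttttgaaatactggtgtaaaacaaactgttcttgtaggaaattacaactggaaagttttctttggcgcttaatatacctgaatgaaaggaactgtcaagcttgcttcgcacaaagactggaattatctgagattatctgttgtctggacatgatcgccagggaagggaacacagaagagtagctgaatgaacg
Prkd3: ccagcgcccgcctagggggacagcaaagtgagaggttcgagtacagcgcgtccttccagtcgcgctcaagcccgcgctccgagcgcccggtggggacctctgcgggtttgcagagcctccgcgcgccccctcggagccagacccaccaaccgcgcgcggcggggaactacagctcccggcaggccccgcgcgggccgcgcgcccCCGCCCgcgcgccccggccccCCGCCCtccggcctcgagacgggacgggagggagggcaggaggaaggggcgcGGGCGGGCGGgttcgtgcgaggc

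The Plcxd2 window had a GC content of 64.3%, with 2 matches to CCAAT, 2 to GGGCGG and 1 to CCGGAAG. The upstream Rasgrp3 window (48.3% GC) had 1 match to TATAAA on its minus strand, and the downstream one (52.7% GC) and the Plce1 window (41% GC) matched none of the 7 motifs. The Prkd3 window (78% GC) had 4 matches to GGGCGG, counting overlapping ones. RefSeq gave 48 windows for 31 of the 33 members. GGGCGG, the letters of the GC box, stood in 34 of these 48 windows (70.8%), against 35.7% of all 32851 windows. This motif holds only G and C, and most member windows lay above the median GC content of all windows, 52.67%. The 48 windows are not independent, since some of the same gene overlap, as for Dgka and Prkd2. CACGTG (E-box) stood in 14.6% of member windows and 7.15% of all, TTCNNNGAA (STAT site) in 10.4% and 8.3%, and CCAAT in 25% and 37.4%. TATAAA was found in 6.25% of member windows and 13.6% of all, CCGGAAG (ETS site) in 6.25% and 8.86%, and TGANTCA (AP-1 site) in 2.08% and 7.81%. These are matches of letters on both strands, and no test was made.

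Levels were compared between genes only on the length-scaled values that the authors deposited, TPM (counts per gene length, scaled to a common total) in liver and FPKM (fragments per gene length and library size) in hepatocytes. The 2 experiments were normalized separately, so no level was set across them. In liver the highest member was Prkd3, a protein kinase D, with 44.1, 49.5, 46.1 and 46.3 TPM in SMSrKO libraries 5 to 8 and 21.1, 34.3, 31.1 and 31.4 TPM in WT libraries 1 to 4. Every SMSrKO library lay above every WT library. Dgkz, a diacylglycerol kinase, followed with 21.4, 22.2, 22.1 and 29.6 TPM in SMSrKO and 25.3, 27.5, 29.6 and 27.5 TPM in WT, so that in WT the ranges of Prkd3 and Dgkz overlapped.

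Below these 2 came a group of phospholipases C whose levels lay within each other's spread. Plcb3, a beta enzyme activated by Gq-class proteins, averaged 17.6 ± 1.94 TPM in SMSrKO and 19.2 ± 2.29 TPM in WT. Plcxd2, an X-domain phospholipase C, averaged 18.2 ± 2.31 TPM in SMSrKO and 17.3 ± 2.56 TPM in WT. Plcg1, which binds phosphorylated tyrosine kinase receptors, averaged 17.5 ± 0.706 TPM in SMSrKO and 17.8 ± 2.06 TPM in WT (SD, n = 4 each). The protein kinases C were lower. Prkcd, which needs diacylglycerol but no calcium, averaged 11.1 ± 4.36 TPM in SMSrKO and 14.2 ± 2.56 TPM in WT, and Prkca, which needs both, averaged 4.62 ± 0.672 TPM in SMSrKO and 4.32 ± 0.864 TPM in WT. Of the atypical enzymes, which need neither, the higher was Prkcz in SMSrKO (8.74 ± 0.725 TPM) and Prkci in WT (8.85 ± 0.681 TPM). Rasgrp2, an exchange factor for Rap known best from platelets, led the RasGRP genes with 6.84 ± 1.05 TPM in SMSrKO and 7.39 ± 1.26 TPM in WT. At the low end, Plch1 had 0 to 0.0472 TPM in SMSrKO and 0.0091 to 0.0244 TPM in WT, and Plcd4 and Prkd1 also failed the filter on low counts, so that 30 members were tested in liver.

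In hepatocytes Plcxd2 was the highest member in all 3 groups, with 44.5 ± 2.98 FPKM in tKO, 42.8 ± 2.41 FPKM in dKO and 32.0 ± 1.63 FPKM in WT (SD, n = 3 each). Dgkd, a diacylglycerol kinase linked in mouse muscle to insulin sensitivity, averaged 29.3 ± 0.580 FPKM in tKO, 25.7 ± 0.450 FPKM in dKO and 25.3 ± 0.515 FPKM in WT. Prkci, an atypical kinase of the epithelial polarity complex, averaged 21.1 ± 1.73 FPKM in tKO, 24.3 ± 1.74 FPKM in dKO and 22.8 ± 1.67 FPKM in WT, so that its libraries overlapped those of Dgkd in dKO but not in tKO or WT. Dgkd and Prkci stood above Prkd3, which averaged 14.2 ± 1.17 FPKM in tKO, 13.9 ± 0.382 FPKM in dKO and 14.6 ± 0.761 FPKM in WT. Prkcd averaged 16.7 ± 0.211 FPKM in tKO, 18.0 ± 0.650 FPKM in dKO and 15.9 ± 0.428 FPKM in WT.

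Plcb3, Plcg1 and Prkca formed a lower group whose levels lay between 4.86 and 7.95 FPKM as group means. The RasGRP genes were the lowest role: Rasgrp3 averaged 0.737 ± 0.136 FPKM in tKO and 1.25 ± 0.170 FPKM in dKO, and in WT the highest of them was Rasgrp2 at 0.470 ± 0.238 FPKM. Of the 31 listed members, 22 were listed in all 9 libraries and 20 passed the filter on low counts. The 11 that did not pass were Plcb4, Plcg2, Plcd1, Plcd3, Plcd4, Plch1, Prkcb, Prkcq, Prkd1, Rasgrp1 and Rasgrp2.

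**Figure D1:**
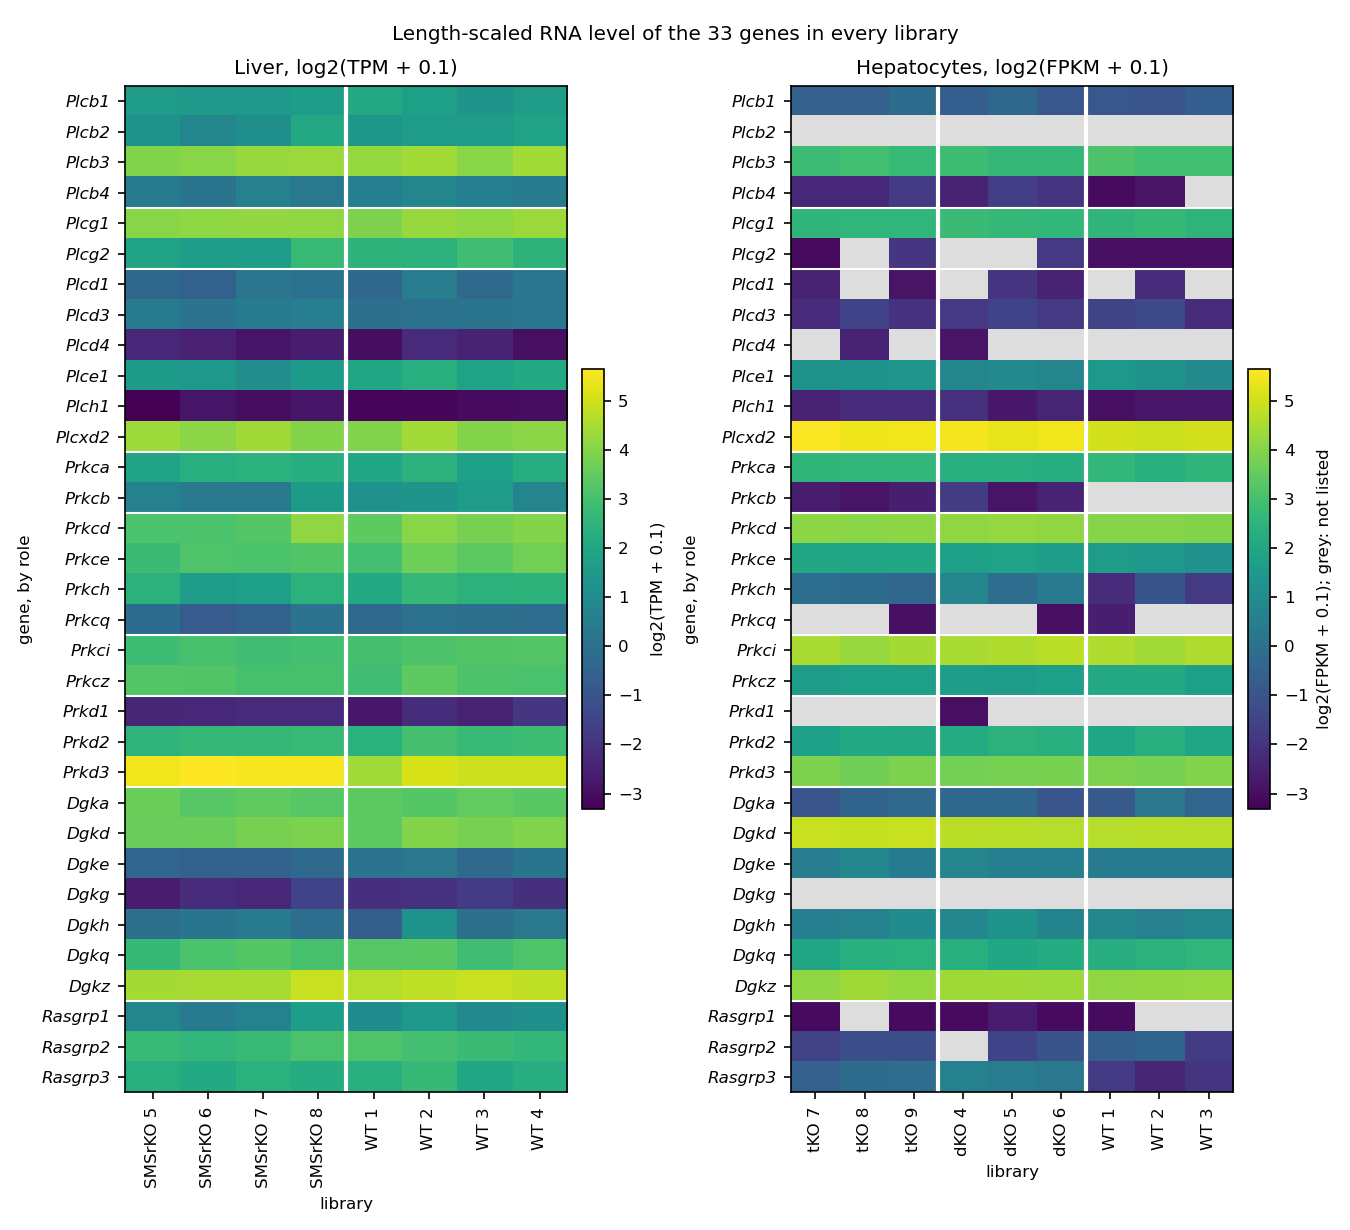
Length-scaled level of each of the 33 genes in each library, as the authors' TPM in liver and FPKM in hepatocytes, coloured by log2(level + 0.1); rows are genes grouped by role, columns are libraries (SMSrKO 5 to 8 and WT 1 to 4, then tKO 7 to 9, dKO 4 to 6 and WT 1 to 3), and grey means not listed. Prkd3 is the brightest row in liver and Plcxd2 in hepatocytes; colours are comparable within an experiment only.

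The SMSrKO and WT livers address what loss of SMSr changes in a liver under a fat- and fructose-rich diet. No member passed the test at an adjusted p of 0.05, in either direction, among 30 tested. The background was as low: 0.12% of the 15820 genes tested were called higher in SMSrKO (19 genes) and 0.114% lower (18 genes). At an unadjusted p under 0.05 there were 4 members, against 13.1% of all genes tested. The median log2 fold change, SMSrKO over WT, was -0.14 over the 30 members and -0.01 over all genes tested. DESeq2 called 2 members, Prkd3 and Plce1, against 2.53% of the genes it tested.

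Prkd3 was the member with the smallest p. It had 235, 258, 233 and 224 CPM in SMSrKO libraries and 110.2, 159, 159 and 149 CPM in WT libraries. The groups did not overlap, and WT 1 was the lowest. This was a ratio of 1.65 and a log2 fold change of 0.72 ± 0.125 (SE) by edgeR, for which the adjusted p was 0.0574. It missed the threshold, and passed it in some alternative analyses but not in others. With DESeq2 the adjusted p was 5.57e-05, and with edgeR on all genes without the filter on low counts it was 0.00499, where 0.46% of genes were called. Without WT 1 the log2 fold change was 0.61 and the edgeR adjusted p 0.0148, where 0.263% of genes were called higher. In every other alternative run, including library totals as scaling, limma on TPM and leaving out any other library, it was not called, with adjusted p of 0.0580 to 0.177. In Ensembl the gene (ENSMUSG00000024070) lies on GRCm38 at chr17:78949405-79020816, minus strand.

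Plce1 encodes PLC-epsilon, a phospholipase C that is also an exchange factor for Rap and is activated by Ras-family proteins. It had 22.0, 20.1, 15.1 and 19.9 CPM in SMSrKO and 31.1, 32.7, 26.6 and 29.2 CPM in WT. All SMSrKO libraries lay below all WT libraries. By edgeR the log2 fold change was -0.64 ± 0.120 (SE), for which the adjusted p was 0.0713; with DESeq2 it was 0.00151, and without the filter on low counts 0.0142, while every other alternative left it uncalled with adjusted p of 0.0679 to 0.180. The gene (ENSMUSG00000024998) lies at chr19:38481109-38785030, plus strand.

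The next 3 members by p were Dgke, Prkce and Prkci. Dgke, the diacylglycerol kinase that prefers arachidonate-containing substrate in mammals, had 2.69, 2.31, 2.35 and 2.74 CPM in SMSrKO and 3.81, 3.81, 2.97 and 3.56 CPM in WT. These groups did not overlap either, but the edgeR adjusted p was 0.244 (log2 fold change -0.49 ± 0.160). Prkce had 23.9, 30.7, 28.2 and 29.1 CPM in SMSrKO and 26.4, 38.2, 34.5 and 41.5 CPM in WT. Here WT 1 lay inside the SMSrKO range, and the edgeR adjusted p was 0.354 (log2 fold change -0.33 ± 0.138). Prkci had 19.1, 21.2, 18.9 and 18.7 CPM in SMSrKO and 20.9, 20.4, 23.9 and 22.6 CPM in WT (edgeR log2 fold change -0.17 ± 0.0861, adjusted p = 0.429). With Plcd3, at 1.57 to 1.97 CPM in SMSrKO and 1.29 to 1.54 CPM in WT, 2 members had groups that did not overlap with SMSrKO higher, against 3.79% of all genes tested, and 2 with SMSrKO lower, against 4.32%.

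SMSrKO library 8 was the highest SMSrKO library for several members, of which 6 with clear gaps are named here after their values were seen. Plcg2, the gamma enzyme of B cells and myeloid cells, had 12.7 CPM in SMSrKO 8, 6.23 to 7.60 CPM in SMSrKO 5 to 7 and 9.54 to 14.6 CPM in WT. Prkcb had 9.51 CPM in SMSrKO 8, 4.02 to 5.30 CPM in SMSrKO 5 to 7 and 5.28 to 10.4 CPM in WT, and Plcb2, Rasgrp1, Prkcd and Dgkz were also highest there within SMSrKO. Other members that blood cells also express did not show such a gap. Prkch had 10.5 CPM in SMSrKO 8 and 11.8 CPM in SMSrKO 5, Prkcq had 2.99 CPM in SMSrKO 8 and 2.78 CPM in SMSrKO 5, and Dgka was lowest in SMSrKO 8, at 12.1 CPM against 13.0 to 16.6 CPM in SMSrKO 5 to 7. Macrophage markers summed to 1114 CPM in SMSrKO 8, 476 to 751 CPM in SMSrKO 5 to 7 and 715 to 990 CPM in WT. Neutrophil markers summed to 31.2 CPM in SMSrKO 8, 6.76 to 9.82 CPM in SMSrKO 5 to 7 and 17.5 to 40.5 CPM in WT. B cell markers summed to 17.0 CPM in SMSrKO 8, 6.04 to 7.79 CPM in SMSrKO 5 to 7 and 3.89 to 7.52 CPM in WT. In a bulk library fewer cells of a type and less RNA per cell cannot be told apart, and the part of these cells in the members' values was not tested. Without SMSrKO 8, as with it, edgeR called no member. Endothelial marker sums were closer between groups, at 371 to 474 CPM in SMSrKO and 430 to 496 CPM in WT.

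**Figure D2:**
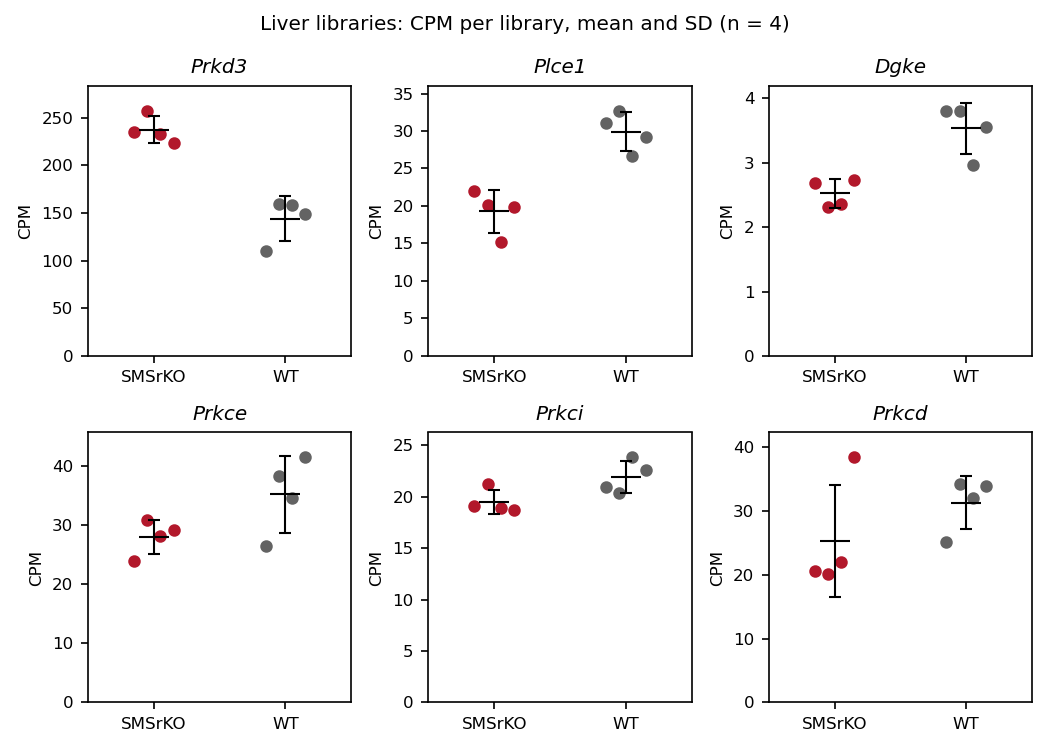
CPM (vertical axis, from 0) in each liver library for the 5 genes with the smallest p and for Prkcd, with SMSrKO left and WT right; points are libraries, the line and bar are the mean and SD (n = 4 each). For Prkd3 every SMSrKO point lies above every WT point and for Plce1 and Dgke every one lies below, while Prkcd in SMSrKO has 1 point, library 8, at 38.4 CPM and the others between 20.1 and 22.0 CPM.

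The hepatocyte groups ask what changes when Sms1 and Sms2 are lost (dKO against WT), when Smsr is lost as well (tKO against WT), and what the added loss of Smsr changes (tKO against dKO). In dKO, 6 of the 20 tested members rose and 5 fell, and the largest rises were in Rasgrp3 and Prkch, with the abundant Plcxd2 and the lipid-sensing kinase gene Prkce also higher. In tKO against WT, 5 rose and 3 fell, with the same 4 genes among those that rose. Between tKO and dKO, 3 were higher in tKO (Plce1, Prkca and Dgkd) and 4 lower (Rasgrp3, Prkch, Prkci and Prkd2).

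These counts stand beside a background in which a large share of all genes was called. In dKO against WT 24.0% of the 11471 genes tested were called higher and 20.0% lower. In tKO against WT 25.6% were called higher and 21.8% lower, and in tKO against dKO 14.3% higher and 15.2% lower. The members' shares called in either direction were 55%, 40% and 35% of 20, near the sums of those 2 shares of all genes. The median log2 fold changes of the 20 members were 0.13 in dKO over WT, 0.03 in tKO over WT and -0.01 in tKO over dKO, against -0.01, 0.00 and 0.00 over all genes tested. At an unadjusted p under 0.05 there were 11, 10 and 9 members, against 50.1%, 53.1% and 38.5% of all genes. The comparisons with WT share the WT libraries, and each of these contrasts also shares a knockout group with the third.

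The spread behind these calls was small. The edgeR common coefficient of variation between libraries of a group was 3.52% in hepatocytes and 20.3% in liver. The hepatocyte contrasts were also tested with the common dispersion of the liver libraries, by an edgeR likelihood ratio test in place of the quasi-likelihood F test. Then only Rasgrp3 and Prkch against WT still passed, and no member passed in tKO against dKO. Both had few WT counts, 4 to 8 and 4 to 13, and entered the test through their knockout libraries. The share of all genes called was 9.2% in dKO against WT, 10.6% in tKO against WT and 2.84% in tKO against dKO. The modest fold changes given next therefore rest on the closeness of the 3 libraries of a group.

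**Figure D3:**
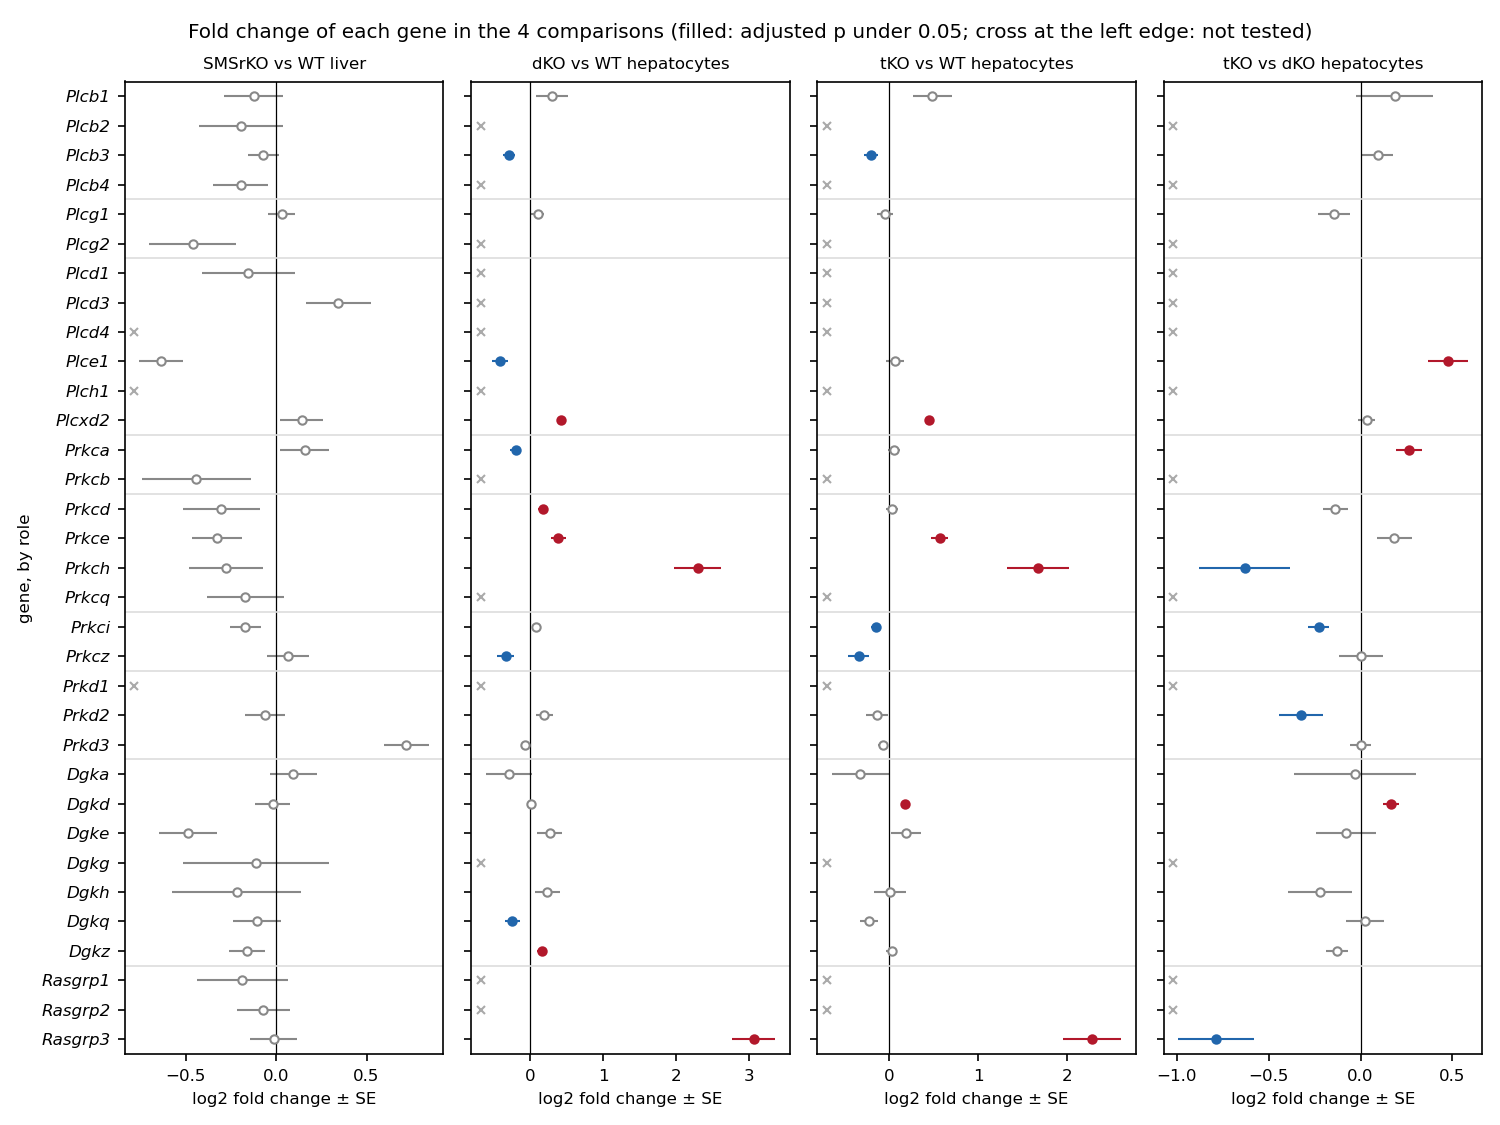
log2 fold change (horizontal axis) with its SE for each of the 33 genes in 4 comparisons: SMSrKO over WT liver, dKO over WT, tKO over WT and tKO over dKO hepatocytes. Filled red and blue points have an edgeR adjusted p under 0.05 (higher and lower), open grey points do not, and crosses at the left edge were not tested; liver holds no filled point, and Rasgrp3 and Prkch lie far right against WT in hepatocytes.

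Among the phospholipases C, Plcxd2 rose in both knockouts. It had 347, 306 and 310.2 CPM in tKO, 327, 296 and 319 CPM in dKO, and 243, 222 and 242 CPM in WT. Every tKO and dKO library lay above every WT library, while tKO and dKO overlapped. The edgeR log2 fold change was 0.41 ± 0.0454 in dKO over WT, a ratio of 1.33 (adjusted p = 5.38e-12), and 0.45 ± 0.0453 in tKO over WT, a ratio of 1.36 (adjusted p = 2.63e-13). Between tKO and dKO it was 0.03 ± 0.0443 (edgeR adjusted p = 0.632). In Ensembl the gene (ENSMUSG00000087141) lies at chr16:45959263-46010218, minus strand, and its promoter sequence is the first printed above.

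Plce1 separated the 2 knockouts. It had 21.7, 22.2 and 22.9 CPM in tKO, 15.5, 17.2 and 15.3 CPM in dKO, and 25.7, 21.5 and 16.8 CPM in WT. The tKO libraries lay above all dKO libraries, and WT spread over both. Its log2 fold change in tKO over dKO was 0.47 ± 0.107 (edgeR adjusted p = 0.00028). In dKO over WT it was -0.41 ± 0.109 (edgeR adjusted p = 0.00116), a call that rested on WT 1: without that library the value was -0.26 and the adjusted p 0.0706. In tKO over WT it was 0.06 ± 0.102 (edgeR adjusted p = 0.651).

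Plcb3 fell in dKO, with 30.1, 26.2 and 26.2 CPM, and in tKO, with 29.4, 31.1 and 27.6 CPM, against 37.3, 31.8 and 32.3 CPM in WT. All 6 knockout libraries lay below the WT libraries. The log2 fold changes were -0.30 ± 0.0841 in dKO over WT (edgeR adjusted p = 0.00261) and -0.20 ± 0.0825 in tKO over WT (edgeR adjusted p = 0.0364). Without WT 1 they were -0.22 and -0.13, with adjusted p of 0.054 and 0.281. Plcb1 and Plcg1 were not called in any contrast. Plcb1 had 4.02 to 5.59 CPM in tKO, 3.13 to 5.05 CPM in dKO and 2.92 to 3.79 CPM in WT, and its largest log2 fold change was 0.48 ± 0.219 in tKO over WT (edgeR adjusted p = 0.0615). Plcg1 lay between 24.5 and 30.1 CPM in all 9 libraries.

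Of the 4 kinases that need diacylglycerol but no calcium, Prkcq was under the filter and the 3 others were tested. All 3 rose in dKO and 2 in tKO against WT, where 24.0% and 25.6% of all genes were called higher. Prkch stood in the order of the endothelial marker sums given below, and the Prkcd call was lost in several alternatives. Prkce rose in both. It had 24.9, 23.0 and 24.1 CPM in tKO, 21.2, 22.1 and 19.9 CPM in dKO, and 18.2, 16.6 and 13.8 CPM in WT. Both knockout groups lay wholly above WT, and tKO wholly above dKO. The log2 fold change was 0.57 ± 0.0996 in tKO over WT, a ratio of 1.48 (edgeR adjusted p = 1.32e-06), and 0.38 ± 0.103 in dKO over WT, a ratio of 1.303 (edgeR adjusted p = 0.00138). The difference between tKO and dKO was 0.18 ± 0.0946 (edgeR adjusted p = 0.14). The gene (ENSMUSG00000045038) lies at chr17:86167785-86657919, plus strand. In SMSrKO liver, as given above, its log2 fold change over WT was -0.33 and did not pass the test.

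Prkch, the gene of PKC-eta, was scarce, with 2.89, 2.81 and 2.34 CPM in tKO, 5.55, 2.90 and 3.99 CPM in dKO, and 0.439, 1.41 and 0.650 CPM in WT. These stand for 23 to 28 expected counts in tKO, 27 to 52 in dKO and 4 to 13 in WT. The log2 fold change was 2.30 ± 0.321 in dKO over WT (edgeR adjusted p = 3.92e-09) and 1.67 ± 0.348 in tKO over WT (edgeR adjusted p = 3.72e-05). Without WT 2, the highest WT library, these were 2.90 and 2.27. It was -0.63 ± 0.247 in tKO over dKO (edgeR adjusted p = 0.0443), where dKO 4 was highest and without it the value was -0.36 with an adjusted p of 0.392. That call was lost in 5 of the 9 runs that each left out 1 library. In Ensembl the gene (ENSMUSG00000021108) lies at chr12:73584797-73778185, plus strand. Prkcd had 45.6, 44.2 and 44.5 CPM in tKO, 48.2, 51.7 and 47.9 CPM in dKO, and 44.6, 44.3 and 42.4 CPM in WT. Only its dKO libraries stood apart, with a log2 fold change of 0.17 ± 0.0686 over WT (edgeR adjusted p = 0.0368), and neither DESeq2 (adjusted p = 0.124) nor edgeR without WT 1, WT 2, WT 3 or dKO 5 (adjusted p of 0.0567 to 0.172) called it.

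Prkca, the conventional kinase that also needs calcium, was higher in tKO than in dKO. It had 47.7, 49.0 and 49.7 CPM in tKO, 41.4, 41.1 and 39.7 CPM in dKO, and 50.5, 42.2 and 48.0 CPM in WT. The log2 fold change was 0.26 ± 0.0707 in tKO over dKO (edgeR adjusted p = 0.00255), 0.06 ± 0.0693 in tKO over WT (edgeR adjusted p = 0.521) and -0.20 ± 0.0717 in dKO over WT (edgeR adjusted p = 0.0162). DESeq2 did not call the last of these (adjusted p = 0.0696), nor did edgeR without WT 1 (adjusted p = 0.141). Prkcb, the other conventional gene, was under the filter, with 3 to 6 expected counts in tKO, 3 to 8 in dKO and no listing in WT.

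The atypical kinases were both lower in tKO than in WT. Prkci had 99.0, 83.8 and 92.5 CPM in tKO, 101, 106 and 116 CPM in dKO, and 106, 93.0 and 106 CPM in WT. Its tKO libraries overlapped those of WT, with tKO 8 the lowest and a log2 fold change of -0.15 ± 0.0584 (edgeR adjusted p = 0.0347) that was -0.09 without tKO 8 (adjusted p = 0.263), and they lay below all dKO libraries, with -0.23 ± 0.0580 (edgeR adjusted p = 0.0015). Limma on FPKM did not make the Prkci call in tKO against dKO. Prkcz had 12.7, 13.5 and 13.4 CPM in tKO, 13.1, 12.6 and 13.9 CPM in dKO, and 18.1, 18.3 and 13.9 CPM in WT. WT 3 lay at the level of the knockouts, and the log2 fold change was -0.34 ± 0.116 in both tKO (edgeR adjusted p = 0.0111) and dKO over WT (edgeR adjusted p = 0.0125), calls that DESeq2 did not make (adjusted p of 0.0654 and 0.075).

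Neither tested protein kinase D gene was called against WT in either knockout. Prkd3, the gene with the smallest liver p, had 86.3, 74.0 and 84.6 CPM in tKO, 78.9, 82.3 and 83.7 CPM in dKO, and 85.5, 81.3 and 90.0 CPM in WT. The 3 groups overlapped, and its log2 fold changes over WT were -0.07 ± 0.0579 in tKO and -0.07 ± 0.0582 in dKO (edgeR adjusted p of 0.345 and 0.357). Prkd2 was lower in tKO, at 10.8, 14.1 and 13.8 CPM, than in dKO, at 14.9, 17.8 and 15.9 CPM, with 13.0 to 16.4 CPM in WT. Its log2 fold change was -0.33 ± 0.119 in tKO over dKO (edgeR adjusted p = 0.0297) and -0.21 without tKO 7 (adjusted p = 0.226).

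Among the diacylglycerol kinases, Dgkd rose in tKO alone by the test. It had 165, 160.0 and 165 CPM in tKO, 147, 147 and 143 CPM in dKO, and 141, 145 and 146 CPM in WT. All tKO libraries lay above the 6 others. The log2 fold change was 0.18 ± 0.0461 in tKO over WT (edgeR adjusted p = 0.000732) and 0.17 ± 0.0460 in tKO over dKO (edgeR adjusted p = 0.00327), against 0.01 ± 0.0468 in dKO over WT (edgeR adjusted p = 0.839). Dgkz rose in dKO, with 72.3, 71.0 and 70.1 CPM against 62.6, 63.6 and 65.3 CPM in WT, by 0.16 ± 0.0611 on the log2 scale (edgeR adjusted p = 0.0307). Dgkq fell in dKO, with 22.1, 18.5 and 21.4 CPM against 21.9, 24.4 and 27.2 CPM in WT (log2 fold change -0.25 ± 0.1003, edgeR adjusted p = 0.0379). DESeq2 made neither call, with adjusted p of 0.105 for Dgkz and 0.161 for Dgkq. Of the exon bases of Dgkq, 30.8% overlap exons of Idua and Tmem175 on the other strand, so its counts are uncertain, since no source used here gives the strand setting of the counting. Dgka, Dgke and Dgkh were not called in any contrast.

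**Figure D4:**
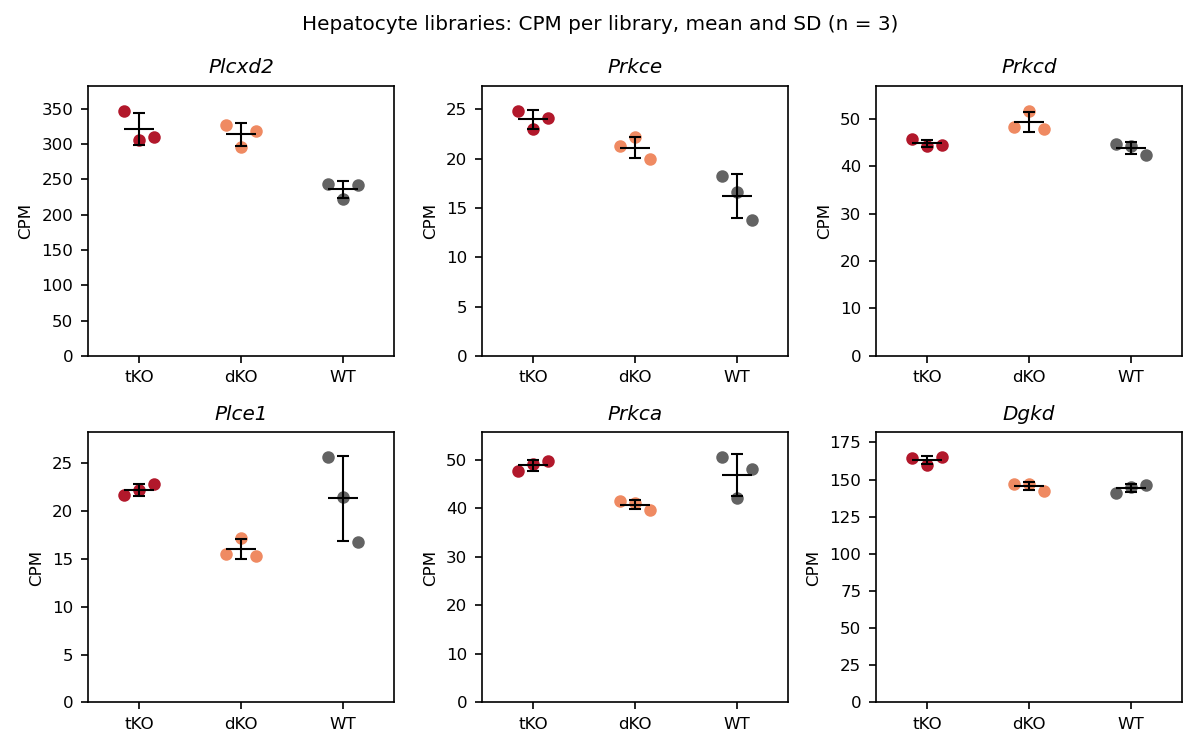
CPM (vertical axis) in each hepatocyte library for Plcxd2, Prkce, Prkcd, Plce1, Prkca and Dgkd, with tKO, dKO and WT from left to right; points are libraries, the line and bar are the mean and SD (n = 3 each). Plcxd2 and Prkce lie higher in both knockouts than in WT, Dgkd in tKO alone, and Plce1 and Prkca are lower in dKO than in tKO.

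Rasgrp3, an exchange factor that loads Ras and Rap with GTP when diacylglycerol binds it, had the largest fold change of the 20 tested members. It had 2.68, 3.75 and 3.76 CPM in tKO, 6.62, 5.91 and 5.07 CPM in dKO, and 0.877, 0.432 and 0.758 CPM in WT. The 3 groups did not overlap, with dKO highest. They stand for 26 to 37 expected counts in tKO, 47 to 62 in dKO and 4 to 8 in WT. The log2 fold change was 3.07 ± 0.293 in dKO over WT, a ratio of 8.38 (edgeR adjusted p = 3.1e-15), and 2.28 ± 0.325 in tKO over WT, a ratio of 4.86 (edgeR adjusted p = 6.24e-09). In tKO over dKO it was -0.79 ± 0.206 (edgeR adjusted p = 0.00179). Like Prkch, the gene passed the filter on low counts through its knockout libraries, since WT counts of both are mostly under 10. In Ensembl it (ENSMUSG00000071042) lies at chr17:75435905-75529043, plus strand, and the sequences of both of its promoter windows are given above. In liver its level was 9.998 to 11.7 CPM in SMSrKO and 9.29 to 13.2 CPM in WT.

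Marker sums of some other cell types, namely endothelial, stellate, macrophage and cholangiocyte, were higher in the same libraries. Platelet and megakaryocyte markers went the other way, with mean sums of 2.30 CPM in tKO, 2.90 CPM in dKO and 3.55 CPM in WT. The 8 endothelial markers summed to 72.2 to 75.5 CPM in tKO, 123 to 140.4 CPM in dKO and 21.0 to 22.4 CPM in WT. All 8 were listed and tested. In dKO against WT 8 were higher, against 24.0% of all genes tested. In tKO against WT 7 were higher, against 25.6% of all genes, and 6 were lower in tKO than in dKO, against 15.2%. WT counts were 1 to 3 for Clec4g, 3 to 11 for Tek and 2 to 10 for Lyve1. These genes passed the filter on low counts through their knockout libraries, which favours a high median. The median log2 fold change of the 8 markers was 2.83 in dKO over WT, 2.08 in tKO over WT and -0.73 in tKO over dKO. The order dKO, tKO, WT was thus that of Rasgrp3 and of the Prkch means. Stellate cell markers summed to 31.3 to 35.6 CPM in tKO, 50.7 to 56.4 CPM in dKO and 15.9 to 19.9 CPM in WT, with Lrat at 0 counts in WT. Most of the WT sum was Reln, which was near equal in the groups, at 16.3 CPM in tKO, 18.4 CPM in dKO and 17.5 CPM in WT, while Dcn averaged 15.4 CPM in tKO, 29.0 CPM in dKO and 0.434 CPM in WT. The median log2 fold change of the 4 tested stellate markers was 4.87 in dKO over WT and 3.23 in tKO over WT. Only these 4 of the 8 passed the filter on low counts. Dcn had 3 to 5 counts in WT and 260 to 279 in dKO. Col3a1 and Pdgfrb each had 0 to 1 counts in WT, with 12 to 23 and 10 to 22 in dKO. Dcn, Col3a1 and Pdgfrb passed through their knockout libraries, which favours a high median. Macrophage markers summed to 1069 to 1100 CPM in tKO, 1310 to 1394 CPM in dKO and 714 to 736 CPM in WT, mostly from Cd14, Cd68 and Mpeg1, while Adgre1, Clec4f and Csf1r were at or under 1.14 CPM as group means and Vsig4 was at 0 counts in WT. Cholangiocyte markers summed to 161 to 168 CPM in tKO, 198 to 217 CPM in dKO and 71.3 to 88.4 CPM in WT, nearly all from Sox9, with Krt19 at or under 0.344 CPM. T and NK cell markers were at 2.48 CPM or below in sum in every hepatocyte library, and B cell and neutrophil markers at 1.35 CPM or below. Hepatocyte markers summed to 45507 to 47743 CPM in tKO, 50953 to 52114 CPM in dKO and 57603 to 59401 CPM in WT. Most of this sum was Alb, at 37624 CPM in tKO, 41770 CPM in dKO and 48739 CPM in WT. Of the 8 hepatocyte markers, 2 were called higher and 3 lower against WT in each knockout. The part of these cells in the Rasgrp3 and Prkch values was not tested.

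**Figure D5:**
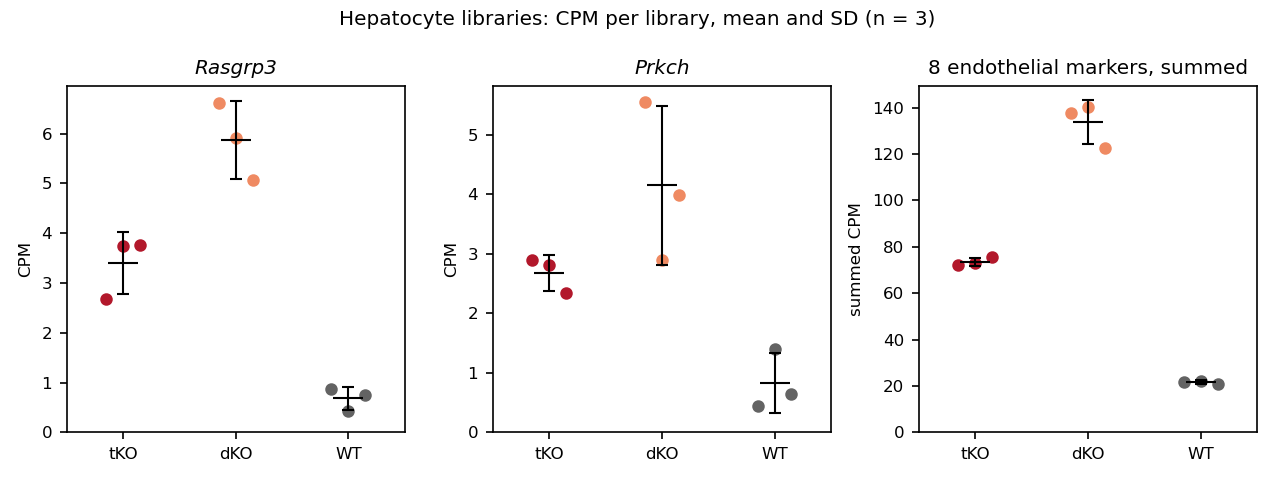
CPM (vertical axes, from 0) of Rasgrp3, of Prkch and of 8 endothelial markers summed, in each hepatocyte library, with tKO, dKO and WT from left to right; points are libraries, the line and bar are the mean and SD (n = 3 each). All 3 panels have dKO highest and WT lowest by mean.

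The other genes of the pathway were taken in 6 lists, described by counts and medians without a test of the list. None of the genes of these lists passed the test in liver. In hepatocytes their counts stand against the shares of all genes given above, 24.0% called higher and 20.0% lower in dKO against WT, 25.6% and 21.8% in tKO against WT, and 14.3% and 15.2% in tKO against dKO. The 16 further genes of the same enzyme families gave 7 tested genes in hepatocytes, none called in dKO against WT, 1 lower in tKO against WT (Rasgrp4, -0.67 ± 0.253 on the log2 scale, edgeR adjusted p = 0.022), and 1 higher (Pkn3, 0.82 ± 0.264, edgeR adjusted p = 0.0122) and 1 lower (Rasgrp4, -0.74 ± 0.250, edgeR adjusted p = 0.0169) in tKO against dKO. The median log2 fold change was 0.08 in tKO over WT, 0.05 in dKO over WT and 0.07 in tKO over dKO.

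Upstream of phospholipase C, of 10 tested Gq-class G proteins and receptors, 2 rose and 5 fell in dKO, and 1 rose and 4 fell in tKO against WT. P2ry2, a receptor for extracellular ATP and UTP, averaged 28.9 ± 1.20 CPM in tKO, 30.5 ± 1.75 CPM in dKO and 19.0 ± 2.23 CPM in WT. It rose by 0.60 and 0.68 on the log2 scale in tKO and dKO. Avpr1a, the vasopressin receptor of hepatocytes, averaged 12.1 ± 0.489 CPM in tKO and 20.8 ± 2.07 CPM in WT (log2 fold change -0.78 ± 0.111, edgeR adjusted p = 5.89e-09). It was also lower in tKO than in dKO, by -0.66 ± 0.112 on the log2 scale (edgeR adjusted p = 1.32e-06). Egfr, a tyrosine kinase receptor that recruits PLC-gamma, averaged 429 ± 14.7 CPM in tKO and 566 ± 21.0 CPM in WT (log2 fold change -0.40, edgeR adjusted p = 4.94e-15). Gna11, a Gq-class alpha subunit, fell by 0.29 in dKO and by 0.30 in tKO on the log2 scale. The list's median log2 fold change was -0.14 in dKO and -0.06 in tKO over WT, against -0.01 and 0.00 over all genes.

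Of 8 tested enzymes that supply phosphoinositides, 4 rose and 2 fell in each knockout against WT, with a median log2 fold change of 0.13 in tKO and 0.10 in dKO. Pi4k2a and Pip5k1a, kinases that make the 4-phosphate and 4,5-bisphosphate, rose by 0.40 and 0.38 in dKO and by 0.38 and 0.35 in tKO on the log2 scale. Cdipt, the phosphatidylinositol synthase, fell to 70.7 ± 2.27 CPM in dKO, against 86.8 ± 3.03 CPM in WT. Downstream, of 9 tested inositol trisphosphate receptors and metabolising enzymes, 3 rose and 1 fell in dKO, and 5 rose and 1 fell in tKO. The list's median log2 fold change over WT was 0.25 in tKO and -0.15 in dKO, where the median and the count of calls differ in sign. The fall was in Itpr1, a calcium release channel, which averaged 88.3 ± 4.43 CPM in tKO, 84.0 ± 1.45 CPM in dKO and 124 ± 3.93 CPM in WT (log2 fold changes -0.49 and -0.56). In liver Itpr1 averaged 79.7 ± 3.94 CPM in SMSrKO and 116 ± 34.8 CPM in WT, with an edgeR adjusted p of 0.232. Itpkb, a kinase that phosphorylates inositol trisphosphate, averaged 3.43 ± 0.904 CPM in tKO, 8.09 ± 0.575 CPM in dKO and 1.12 ± 0.660 CPM in WT, the order in which the endothelial marker sums stood. It passed the filter on low counts through its knockout libraries.

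Of 14 tested enzymes that make or use diacylglycerol outside the 33 members, 5 rose and 5 fell in dKO, 4 rose and 6 fell in tKO against WT, and 3 were higher and 4 lower in tKO than in dKO. The median log2 fold change was -0.17 in tKO over WT, 0.06 in dKO over WT and -0.06 in tKO over dKO. Dgat2, which converts diacylglycerol to triglyceride, averaged 534 ± 19.2 CPM in tKO, 577 ± 16.6 CPM in dKO and 314 ± 5.65 CPM in WT. Its log2 fold changes were 0.76 ± 0.0390 in tKO and 0.88 ± 0.0390 in dKO over WT (edgeR adjusted p of 5.84e-30 and 1.21e-33). Lpin3, a phosphatidic acid phosphatase, averaged 12.2 ± 1.40 CPM in tKO, 7.16 ± 0.685 CPM in dKO and 15.7 ± 0.958 CPM in WT. Plpp3, a lipid phosphate phosphatase, was 0.63 lower on the log2 scale in tKO than in dKO (edgeR log2 fold change -0.63, adjusted p = 1.58e-12).

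Of 17 tested scaffolds, activators and substrates of these kinases, 9 rose and 2 fell in dKO, 7 rose and 2 fell in tKO against WT, and 3 were higher and 7 lower in tKO than in dKO. The median log2 fold change was 0.08 in tKO over WT, 0.11 in dKO over WT and -0.13 in tKO over dKO. Sqstm1, the p62 scaffold that binds atypical kinases, averaged 3966 ± 72.0 CPM in tKO, 2961 ± 28.9 CPM in dKO and 2800.5 ± 91.7 CPM in WT, where its tKO over WT log2 fold change was 0.50 ± 0.0330 (edgeR adjusted p = 2e-23). Marcks, a classic PKC substrate, averaged 3.74 ± 0.197 CPM in tKO, 6.47 ± 1.16 CPM in dKO and 0.325 ± 0.286 CPM in WT, and Akap12, a scaffold for PKC, averaged 9.51 ± 0.250 CPM in tKO, 20.3 ± 1.41 CPM in dKO and 2.90 ± 0.181 CPM in WT. Both stood in the order dKO, tKO, WT in which the endothelial and stellate marker sums stood, and the part of those cells was not tested. With a WT mean of 0.325 CPM, Marcks passed the filter on low counts through its knockout libraries.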

How the data were processed

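Gene expression was measured by RNA-seq in 8 liver and 9 hepatocyte libraries, grouped by their genotype labels. The authors deposited a table of raw counts for each liver library, indexed by Ensembl gene, and a TPM table; per the file headers both carry gene identifiers, and TPM recomputed from the counts agreed within 5e-05. For hepatocytes the deposited files gave expected counts (6.25% not whole, rounded here) and FPKM per gene, and list only genes above 0; a gene not listed was given a count of 0. The submitters' processing notes name Bowtie2 2.2.5, STAR 2.5.2b, Trimmomatic 0.36, DESeq2 1.30.1, and both mm10 and GRCm38 as builds. No source used here says which experiment each belongs to or how strand was treated.

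Counts were tested with edgeR 4.0.16 in R 4.3.3 (filterByExpr with a minimum count of 10, TMM scaling, robust quasi-likelihood F test), with Benjamini-Hochberg adjustment over all genes tested, 15820 in liver and 11471 in hepatocytes, and a threshold of 0.05. The 9 hepatocyte libraries formed 1 fit. Ratios are fitted. Motif matches, tables and figures used matplotlib 3.10.9, numpy 2.4.6 and pandas 2.3.3 under Python 3.11.15. Alternatives were DESeq2 1.42.0, limma 3.58.1 on log2(TPM or FPKM + 0.1), other scalings and filters, and leaving out each library. For the hepatocyte contrasts an edgeR likelihood ratio test with the common dispersion of the liver libraries was also run. The script was tested on simulated data.

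The members and lists were chosen with earlier results of these data known. Values in every library were to be given for called members with at least 5 CPM in a group and a log2 fold change of at least 0.5 in size (Rasgrp3, Prkce), for the 5 liver members with the smallest p and for the highest member of each role; the others described in full, such as Prkch, Plcxd2, Plce1, Prkca and Dgkd in hepatocytes, were chosen after their values were seen. Of each pathway list up to 4 genes with the smallest p per contrast were named. Libraries of a group differed by more than counting noise and none was counted as a duplicate, but the chi-square per gene between them was 1.57 to 2.78 in hepatocytes, near the noise of counting, and 24.7 to 192 in liver.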

Additional observations from a re-analysis of the deposited data

Results flagged for a closer look

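In liver, 5 of 60 groups of 4 libraries held a library whose gap to the nearest other, divided by the group's range, exceeded Dixon's 95% critical value, which chance passes in about 1 in 20 groups. In SMSrKO, library 8 was highest for Prkcd (gap share 0.895, with 38.4 CPM against 20.1 to 22.0 CPM) and for Dgkz (0.886, with 81.4 CPM against 63.5 to 65.6 CPM). The marker sums of blood cells in library 8 are given with the liver results, and their part was not tested. SMSrKO library 6 was highest for Prkci (0.849, with 21.2 CPM against 18.7 to 19.1 CPM). Among WT libraries, WT 2 was highest for Plcxd2 (0.930, with 63.0 CPM against 51.6 to 52.4 CPM), and WT 1 was lowest for Dgkd (0.839, with 34.9 CPM against 43.9 to 45.7 CPM).

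Plce1 had fold changes of opposite sign with the label for Smsr loss in the 2 experiments. Its log2 fold change, called in hepatocytes but not in liver, was -0.64 in SMSrKO over WT liver and 0.47 in tKO over dKO hepatocytes, a difference of -1.11. Every SMSrKO library lay below every WT library, and every tKO library above every dKO library. The difference between the experiments was not tested, and diet, tissue and the Sms1 and Sms2 genotype differ between them as well.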

How the results depend on the processing

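Over the called and liver-named members and the alternatives run, 429 values kept their direction and side of the threshold, 80 no longer passed, 5 newly passed and none changed sign after being called. In liver, where no member was called, DESeq2 and edgeR without the filter each called 1 member higher and 1 lower, and leaving out a library gave 0 to 1 higher (1 without WT 1) and 0 lower. In dKO against WT, the liver dispersion left 2 higher members of 6 and 0 lower of 5. DESeq2 left 2 lower and limma on FPKM 2 lower, and leaving out a library gave 4 to 6 higher and 1 to 5 lower (1 without WT 1, 3 without WT 2, 3 without dKO 5). In tKO against WT, the liver dispersion left 2 higher of 5 and 0 lower of 3. There DESeq2 left 0 lower, limma 0 and library totals alone 1, and leaving out a library gave 5 to 6 higher and 1 to 3 lower (1 without WT 1). In tKO against dKO the liver dispersion left 0 higher of 3 and 0 lower of 4. DESeq2 left 2 lower there and limma 1, and leaving out a library gave 2 to 4 lower (2 without tKO 7). The cause was not tested. Beside the liver dispersion, no alternative ended the calls of Rasgrp3 in the 3 contrasts, of Prkch, Plcxd2 and Prkce against WT, of Dgkd in tKO, or of Plce1 and Prkca in tKO against dKO; Prkch was not tested at a minimum count of 30. Scaling by library totals in place of TMM split the liver calls over all genes into 15 higher and 24 lower, 38.5% higher against 51.4%, with a median shift of -0.07. No paired analysis was possible because the groups compared share no replicate numbers. Depth limits the members at a few counts, and 11 of the 31 listed were not tested in hepatocytes.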
